A study of Homo sapiens with 11 samples.

Results

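The genes described here are 10 angiogenic and vasoactive secreted factors, VEGFA, VEGFB, VEGFC, PGF, ADM, ANGPTL4, EDN1, PDGFA, PDGFB and FGF2, chosen by gene symbol. They were picked with earlier results of these data known, so shares set beside those of all genes are a description only. All 10 were among the 28252 genes of the RT4 RNA-Seq, and all 10 were among the 14502 that passed the filter on low counts. All 10 were also among the 26237 promoters of the BEAS-2B H3K4me3 ChIP-Seq. The study exposed human epithelial cells to nickel and asked which changes remained after nickel was removed. RT4 is a human urinary bladder epithelial line, which the study describes as non-invasive bladder cancer cells. Its groups were untreated (UT) cells and cells kept for 6 weeks in 100 μM NiCl2 (Ni-E). A further group was then kept for 2 weeks in medium free of nickel (Ni-W). Each group had 2 RNA-Seq replicates. BEAS-2B is a human lung epithelial line, with 1 H3K4me3 library each of UT cells, of Ni-E cells after the same 6 weeks and dose, and of Ni-W cells kept for more than 6 months in medium free of nickel. The BEAS-2B Ni-W population was expanded from a single colony, so it is 1 clone, and no such step is described for the RT4 Ni-W cells.

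The VEGF family acts through receptor tyrosine kinases of the vessel wall: VEGFA binds FLT1 and KDR, VEGFB and PGF bind FLT1, and VEGFC binds FLT4, the receptor of lymphatic vessels. ADM, the precursor of the vasodilator peptide adrenomedullin, and EDN1, the precursor of the vasoconstrictor endothelin, signal through G protein-coupled receptors, and PDGFA, PDGFB and FGF2 are growth factors for mural and mesenchymal cells. Several of these genes are classical targets of hypoxia-inducible factors (HIFs), which bind DNA at sites with the core ACGTG or GCGTG and whose degradation needs iron-dependent prolyl hydroxylases.

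The RefSeq table (GRCh38.p14) held 14 promoters for 8 of the 10 genes, and each of the 8 had at least 1 promoter with ACGTG or GCGTG on either strand within the 250 bases before the start. At least 1 match was present in 11 of the 14 promoters and in 43.2% of all 35116 promoters of that length. PGF, EDN1 and PDGFA each gave more than 1 promoter, and VEGFA and PDGFB gave none. The 14 promoters held 42.8 to 82.8% G and C, and the share over all promoters was not matched for this. The motifs differ in their first letter, and CACGTG holds ACGTG on both strands. Capitals mark each match, written as it reads on the gene's own strand, so CACGT and CACGC are ACGTG and GCGTG on the other strand. VEGFB, VEGFC, PGF and ADM are the first 4 genes with a match in the order of the list. Of these, the RNA of VEGFB did not pass the test in any fit, and VEGFC and ADM were called in Ni-E. FGF2, also without a call in any fit, held a match too and came later in the list.
VEGFB, chr11:64234334-64234583, plus strand: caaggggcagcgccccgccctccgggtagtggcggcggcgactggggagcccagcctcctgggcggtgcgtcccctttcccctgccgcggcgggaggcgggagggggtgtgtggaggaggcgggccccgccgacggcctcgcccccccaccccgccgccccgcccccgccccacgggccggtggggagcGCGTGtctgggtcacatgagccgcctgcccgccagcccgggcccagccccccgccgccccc
VEGFC, chr4:176792923-176793172, minus strand: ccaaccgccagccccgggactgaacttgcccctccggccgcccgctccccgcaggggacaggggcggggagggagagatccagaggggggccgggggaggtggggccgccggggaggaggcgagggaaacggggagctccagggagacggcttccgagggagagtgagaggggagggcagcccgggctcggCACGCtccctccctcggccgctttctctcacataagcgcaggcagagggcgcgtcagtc
ADM, chr11:10304823-10305072, plus strand: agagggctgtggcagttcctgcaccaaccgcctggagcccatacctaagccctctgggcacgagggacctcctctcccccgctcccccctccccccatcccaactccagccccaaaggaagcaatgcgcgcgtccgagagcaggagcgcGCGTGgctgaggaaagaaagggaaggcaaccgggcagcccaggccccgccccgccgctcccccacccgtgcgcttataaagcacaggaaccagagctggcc
For PGF, ANGPTL4 and EDN1, whose RNA also changed, the bases around the match are shown. The PGF promoter runs into an annotated exon of PGF, and the ANGPTL4 and EDN1 windows were added after the values were seen. The EDN1 window is from the promoter that ends at the annotated start of the gene.
PGF, chr14:74955745-74955769, minus strand: gagcccctcgCACGCactgcgggct
ANGPTL4, chr19:8363911-8363935, plus strand: aaagaagagtCACGTctcccacggt
EDN1, chr6:12290228-12290252, plus strand: tctccggctgCACGTtgcctgttgg
These matches describe the letters of the windows only, since no factor binding was measured here.

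The RT4 libraries held 17075833 to 27736454 estimated counts, with replicate 1 at 17075833 to 18280556 and replicate 2 at 25721265 to 27736454, so depth differed between the replicate numbers in every group. Of 12 urothelial markers, 11 were at 1 TPM (transcripts, per-million scale) or more in all 6 libraries. KRT20, a keratin of the most differentiated urothelial cells, fell from 11.1 and 11.3 TPM in UT to 0.25 and 0.11 TPM in Ni-E (log2 fold change -6.03 ± 0.41, SE, adjusted p = 0.0085 by edgeR's quasi-likelihood test) and was at 1.59 and 1.37 TPM in Ni-W. The uroplakin UPK1A fell in Ni-E as well (log2 fold change -2.27 ± 0.33, SE, adjusted p = 0.0377 by the same test). These 2 were the only markers of the 12 called in Ni-E and KRT20 the only one in Ni-W, and with the replicate as a block 7 and 2 were called, all lower. Of 8 endothelial markers, 5 were under 0.1 TPM in every library. The summed level of the 8 was 6.05 to 9.06 TPM in UT, 2.15 to 3.25 in Ni-E and 5.05 to 6.23 in Ni-W. ESAM had the highest level of the 8, at 6.97 and 5.08 TPM in UT, 1.05 and 2.47 in Ni-E, and 4.35 and 4.02 in Ni-W. The summed level of 8 fibroblast and mural markers was 1.34 to 3.09, 3.9 to 5.84 and 2.8 to 5.67 TPM in the same order, with COL1A2, DCN and THY1 at 0 throughout. In that sum COL3A1 was at 0.84 and 0.26 TPM in UT, 4.13 and 2.18 in Ni-E, and 4.55 and 1.48 in Ni-W. COL1A1 did not follow it, at 0.53 to 0.85 TPM over the 6 libraries. Of 5 leukocyte markers, only CD68 was tested, and their summed level was 7.4 to 8.06, 10.9 to 13.3 and 13.4 to 13.7 TPM. CD68 held nearly all of it, at 7.33 and 7.3, 12.97 and 10.55, and 13.43 and 13.27 TPM. The part of these marker differences in the results on the secreted factors was not tested. In bulk RNA, fewer cells of a type and less RNA per cell cannot be told apart. In BEAS-2B UT cells, promoter H3K4me3 at the epithelial markers was 7.33 RPKM at KRT8, 7.26 at KRT18, 2.21 at EPCAM, 1.02 at CDH1 and 0.432 at KRT19. Of the basal markers, KRT17 was at 1.93 RPKM in UT, 1.17 in Ni-E and 1.29 in Ni-W, and KRT5, KRT14 and TP63 were at most at 0.4 RPKM in the 3 libraries.

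In UT RT4 cells, VEGFA had the highest level of the 10 genes, at 233 ± 49.3 TPM (SD, n = 2), followed by ADM at 63.3 ± 1.94 and VEGFB at 60.3 ± 2.15 TPM. ANGPTL4 and PGF came next, at 11.2 ± 0.028 and 7.74 ± 0.19 TPM. PDGFA, EDN1 and VEGFC lay between 4.15 and 5.63 TPM, and the replicates of PDGFA and EDN1 overlapped. PDGFB was at 1.7 ± 0.15 TPM, and FGF2 was last at 0.17 ± 0.057 TPM, with 8 and 22 estimated counts. The 10 genes summed to 425 and 362 TPM in UT, 1006 and 918 TPM in Ni-E, and 738 and 708 TPM in Ni-W. VEGFA made up 63.2 and 54.9% of the sum in UT and 49.5 and 39.3% in Ni-E, while ADM made up 14.6 and 17.9% in UT and 29.7 and 36.3% in Ni-E. In Ni-W the shares were 48.5 and 38.4% for VEGFA and 26.8 and 33.6% for ADM. The order by mean TPM also moved: ANGPTL4 reached the level of VEGFB in Ni-E, where their replicates overlapped, and EDN1, below VEGFC in Ni-E, was above it in Ni-W. The 4 genes with no sequence shown lie at chr6:43770184-43786487 (VEGFA), chr7:497258-520296 (PDGFA), chr22:39223359-39244982 (PDGFB) and chr4:122826682-122898236 (FGF2) in GRCh38.

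**Figure D1:**
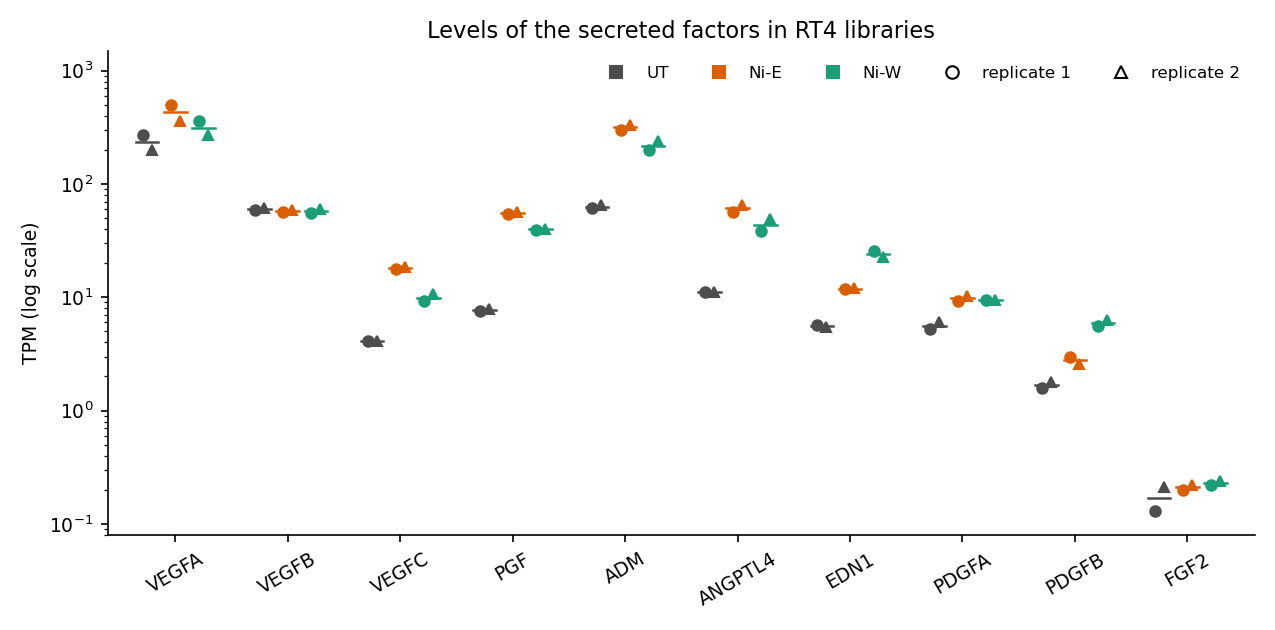
TPM of each gene in the 6 RT4 libraries, on a log axis; circles are replicate 1, triangles replicate 2, and bars the mean of the 2. The UT libraries lie below all Ni-E and Ni-W libraries for 8 of the genes, and for VEGFB and FGF2 the UT and Ni-E libraries overlap.

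In nickel-exposed RT4 cells 4 of the 10 genes were called higher than in UT: PGF 7.03-fold, ANGPTL4 5.35-fold, ADM 4.93-fold and VEGFC 4.34-fold. These calls are from the fit without a replicate block. A gene was called at a change of at least 1.5-fold with an adjusted p under 0.05 in edgeR's quasi-likelihood test over all 14502 genes, of which 1.45% were called higher and 0.71% lower in Ni-E than in UT. None of the 10 was called lower. The median log2 fold change of the 10 was 0.98, and that of all genes tested was -0.01. Both Ni-E libraries lay above both UT libraries, in counts on a per-million scale (CPM), for 8 of the 10 genes, against 20.3% of all genes, and 8 of the 10 had an unadjusted p under 0.05, against 12.2%. Libraries with the same replicate number deviated together over all genes, and with the replicate as a block 8 of the 10 were called higher, against 7.64% of all genes higher and 5% lower. Without 1 library at a time, the log2 fold change was 2.66 to 2.99 for PGF and 2.24 to 2.58 for ANGPTL4. For ADM it was 2.13 to 2.48 and for VEGFC 2 to 2.26. Such a fit assumes the lone library of its group to vary like the others, so it cannot decide whether a call holds.

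PGF, placenta growth factor, was at 7.6 and 7.87 TPM in the UT libraries, 53.9 and 56.4 in Ni-E, and 39.4 and 40.2 in Ni-W. The UT libraries were lowest, the Ni-E libraries highest, and no group overlapped another. The log2 fold change was 2.81 ± 0.25 (SE) in Ni-E against UT, with an adjusted p of 0.0122 by edgeR, and 2.32 ± 0.24 in Ni-W against UT, with an adjusted p of 0.0294. PGF was called higher in both nickel groups.

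ADM was at 61.9 and 64.6 TPM in UT, 299 and 333 in Ni-E, and 198 and 238 in Ni-W. The 3 groups did not overlap, and Ni-W lay between UT and Ni-E. The log2 fold change was 2.3 ± 0.29 (SE) in Ni-E against UT (adjusted p = 0.0266 by edgeR) and 1.75 ± 0.28 in Ni-W against UT, where the adjusted p of 0.0777 missed the threshold. With the replicate block the Ni-W estimate was 1.73 ± 0.11 and was called, as it was by DESeq2.

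ANGPTL4, a secreted inhibitor of lipoprotein lipase that also acts on vessels, was at 11.2 TPM in both UT libraries, 57.0 and 64.8 TPM in Ni-E, and 38.2 and 48.7 TPM in Ni-W. Every nickel library was above the UT libraries, and Ni-W and Ni-E did not overlap in TPM but did in CPM (31.3 and 52.3 against 51.9 and 65.9). The log2 fold change was 2.42 ± 0.31 (SE) in Ni-E against UT (adjusted p = 0.0281 by edgeR) and 1.93 ± 0.31 in Ni-W against UT (adjusted p = 0.0773), called for Ni-W with the block and by DESeq2.

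VEGFC, the lymphatic growth factor, was at 4.15 TPM in both UT libraries, 17.8 and 18.6 in Ni-E, and 9.2 and 10.7 in Ni-W. The groups were separate, with Ni-W in the middle. The log2 fold change was 2.12 ± 0.29 (SE) in Ni-E against UT (adjusted p = 0.0313 by edgeR) and 1.23 ± 0.28 in Ni-W against UT (adjusted p = 0.178), called for Ni-W with the block and by DESeq2.

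VEGFA was at 268 and 198 TPM in UT, 498 and 361 in Ni-E, and 358 and 272 in Ni-W. In each group replicate 1 was the higher, and the lowest Ni-W library lay just above the highest UT library. The estimate sums 20 transcripts, whose mean length was 3225 to 3254 bases in the replicate 1 libraries and 3114 to 3176 in replicate 2. The log2 fold change of Ni-E against UT was 0.89 ± 0.19 (SE, 95% interval 0.42 to 1.36), and its adjusted p of 0.0968 by edgeR missed the threshold. With the replicate block, the same size of change (0.88 ± 0.10) was called, as it was by DESeq2. In Ni-W against UT the log2 fold change was 0.38 ± 0.19, with an interval of -0.09 to 0.84, and it was not called with the block, where its size was below 1.5-fold.

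EDN1 had another course: 5.75 and 5.45 TPM in UT, 11.9 and 12.03 in Ni-E, and 25.4 and 22.8 in Ni-W. No groups overlapped, and the Ni-W libraries were the highest. The log2 fold change of Ni-E against UT, 1.08 ± 0.21 (SE), had an adjusted p of 0.0768 by edgeR and was called with the block and by DESeq2. In Ni-W, EDN1 rose 4.15-fold above UT (log2 fold change 2.05 ± 0.22, adjusted p = 0.0294).

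PDGFB, a growth factor for pericytes, was at 1.59 and 1.8 TPM in UT, 2.95 and 2.6 in Ni-E, and 5.54 and 6.31 in Ni-W, from 46 to 295 estimated counts. Like EDN1, it was highest in both Ni-W libraries. The log2 fold change was 0.84 ± 0.27 (SE) in Ni-E (adjusted p = 0.243 by edgeR) and 1.86 ± 0.27 in Ni-W (adjusted p = 0.0604), both against UT. Both were called with the block, and the change in Ni-W also by DESeq2. PDGFA, which forms homodimers and heterodimers with PDGFB, was at 5.25 and 6.0 TPM in UT, 9.36 and 10.2 in Ni-E, and 9.43 and 9.47 in Ni-W. Its Ni-E and Ni-W libraries overlapped, and both groups lay above UT. The log2 fold changes against UT were 0.77 ± 0.27 in Ni-E (adjusted p = 0.316) and 0.7 ± 0.27 in Ni-W (adjusted p = 0.519) by edgeR, and both were called with the block.

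VEGFB and FGF2 passed the test in none of the fits that held them. VEGFB was at 58.8 and 61.8 TPM in UT, 56.4 and 59.35 in Ni-E, and 55.0 and 59.7 in Ni-W. The groups overlapped, and the 95% interval of its log2 fold change was -0.69 to 0.53 in Ni-E and -0.73 to 0.49 in Ni-W, which leaves out changes of the size seen for PGF, ADM, ANGPTL4 and VEGFC in Ni-E. FGF2, which is exported without a signal peptide, was at 0.13 and 0.21 TPM in UT, 0.2 and 0.22 in Ni-E, and 0.22 and 0.24 in Ni-W, from 8 to 26 estimated counts. At that depth the interval of its log2 fold change ran from -0.91 to 1.47 in Ni-E and from -0.82 to 1.57 in Ni-W, and NUDT6 overlaps FGF2 on the opposite strand, so that reads of the pair may not be separable.

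**Figure D2:**
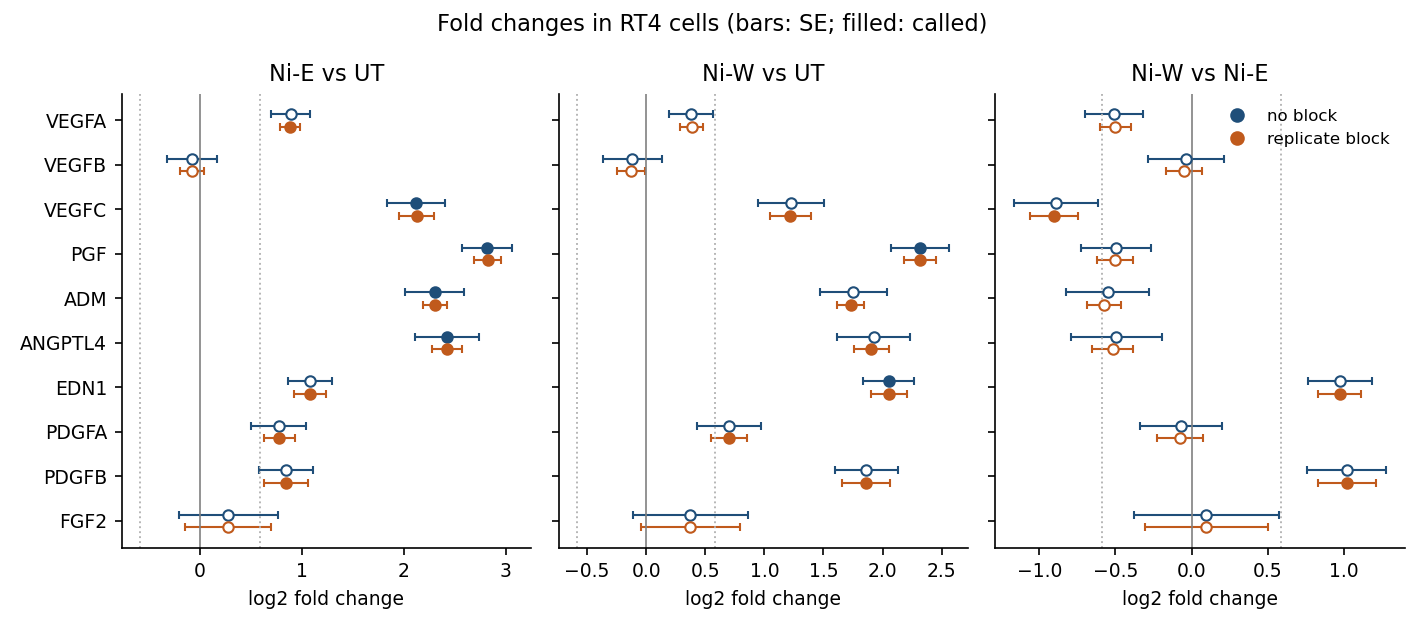
Log2 fold change of each gene with its SE in the 3 RT4 comparisons, from edgeR without (blue) and with (orange) the replicate number as a block; filled points were called, and dotted lines mark 1.5-fold. Estimates were nearly the same in both fits and the SEs were shorter with the block, where 8, 7 and 3 genes were called.

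After nickel removal, 2 of the 10 genes were called above UT, PGF and EDN1, with none lower. Over all genes, 0.503% were called higher and 0.0965% lower. The median log2 fold change of the 10 was 1.49 against 0.00 for all genes tested, and both Ni-W libraries lay above both UT libraries in CPM for the same 8 genes as in Ni-E, against 15.1% of all genes. An unadjusted p under 0.05 was found for 7 of the 10, against 9.12% of all genes. The 2 comparisons share the UT libraries. With the block, 7 were called higher (all of the 8 except VEGFA), against 5.79% of all genes higher and 2.78% lower. DESeq2, the test the study used, called 6 of the 10 and 483 of all genes. Without 1 library at a time, the log2 fold change was 2.1 to 2.52 for PGF and 1.93 to 2.17 for EDN1. The 2 calls also needed the Ni-E libraries in the fit. With only the 2 groups compared, 0 of the 10 were called, as were 0 of all genes.

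The change from Ni-E to Ni-W split the genes in sign. VEGFA, VEGFC, PGF and ADM were lower in both Ni-W libraries than in both Ni-E libraries in CPM, and EDN1 and PDGFB were higher, against 12.7% of all genes lower and 12.7% higher. edgeR called 0 of the 10, as it called 0% of all genes, with 4 of the 10 (VEGFA, VEGFC, EDN1 and PDGFB) at an unadjusted p under 0.05 against 5.57% of all genes. DESeq2 called EDN1, with 162 calls over all genes, and limma on log2(TPM + 1) called 0. With the block edgeR called 3, against 2.72% of all genes higher and 1.8% lower. These 3 were VEGFC (log2 fold change -0.90 ± 0.16, SE), EDN1 (0.97 ± 0.14) and PDGFB (1.02 ± 0.19). The block left VEGFA at -0.50 ± 0.10, PGF at -0.50 ± 0.12 and ADM at -0.58 ± 0.11, each with an adjusted p under 0.05 but a size below 1.5-fold. ANGPTL4 had -0.52 ± 0.14, and PDGFA had -0.08 ± 0.15.

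The difference from UT in Ni-W, as a percent of that in Ni-E, was set within each replicate in CPM, as a description. For VEGFC it was 30.8% in replicate 1 and 48.0% in replicate 2, and for VEGFA 24.6 and 49.6%. PGF had 61.0 and 70.6%, ADM 49.4 and 68.8%, ANGPTL4 50.9 and 74.8%, and PDGFA 81.0 and 94.7%. In CPM the share was larger in replicate 2 for all 6 genes, but this order depended on the unit. In TPM, PDGFA was at 9.36 in Ni-E and 9.43 in Ni-W in replicate 1, and at 10.2 and 9.47 in replicate 2. EDN1 and PDGFB were above 100% in both replicates, with 275 and 289% for EDN1 and 248 and 434% for PDGFB.

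ADM and ANGPTL4 followed almost the same course. Among 11140 genes with a mean of at least 5 CPM, ANGPTL4 was the closest to ADM and ADM the closest to ANGPTL4, with a root mean square difference of 0.0734 in log2 CPM, centred on each gene's mean, over the 6 libraries. The next closest were APLP1 at 0.173 and DPYSL4 at 0.178 to ADM, and LOC91370 at 0.213 and GPX8 at 0.218 to ANGPTL4. VEGFA was closest to ANKZF1 (0.068), CYP4F11 (0.0779) and RRM2 (0.0921).

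The receptors of these ligands were mostly near 0 in RT4 cells. FLT1, KDR and FLT4 reached at most 0.04 TPM in any library, and CALCRL at most 0.02 TPM. PDGFRA reached at most 0.08 TPM and PDGFRB at most 0.07 TPM, and EDNRB, RAMP1 and RAMP3 were at 0. RAMP2 was at 2.31 and 2.26 TPM in UT, 0.71 and 1.05 in Ni-E, and 0.82 and 1.06 in Ni-W. It was not called, with or without the block. PDGFRL was at 11.7 to 18.3 TPM, FGFR2 at 4.81 to 12.8 and FGFRL1 at 2.9 to 5.66. Of 21 receptors, 9 were tested and 1 was called in Ni-E, with a median log2 fold change of 0.10. The called receptor was NRP1, neuropilin, a coreceptor of VEGFA and PGF, at 0.24 TPM in both UT libraries, 1.32 and 1.05 TPM in Ni-E, and 0.19 and 0.23 TPM in Ni-W (log2 fold change 2.62 ± 0.35, SE, in Ni-E against UT, adjusted p = 0.0313 by edgeR). In TPM, both Ni-W libraries lay below both Ni-E libraries and slightly below UT. The log2 fold change of Ni-W against UT was 0.03 ± 0.38 (SE). With the block NRP1 was called lower in Ni-W than in Ni-E. EDNRA, the endothelin receptor of vascular muscle, was at 1.04 and 0.76 TPM in UT, 4.84 and 2.49 in Ni-E, and 5.63 and 2.03 in Ni-W, and was called higher in both nickel groups with the block only, as was FGFR1 in Ni-E. FGFR3 had the highest level of the receptors, at 169 to 303 TPM, and was not called in any of the 3 comparisons.

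Of 19 other ligands of the same families, 4 were tested and 0 were called by edgeR in Ni-E or Ni-W against UT, with 2 and 3 at an unadjusted p under 0.05 and medians of 1.25 and 1.85. With the block, PDGFC and ADM2 were called higher in both nickel groups and EDN2 in Ni-W. These 3 were low, PDGFC at 0.2 to 2.03 TPM, ADM2 at 0.31 to 1.87 and EDN2 at 1.02 to 5.82. Of 9 enzymes that act on these ligands or respond to them, 7 were tested, and PAM, which amidates adrenomedullin to its active form, was the only call in Ni-E. PAM was at 7.52 and 5.97 TPM in UT, 22.7 and 19.1 in Ni-E, and 17.9 and 11.1 in Ni-W (log2 fold change 1.63 ± 0.19, SE, in Ni-E against UT, adjusted p = 0.0242 by edgeR, and 1.03 ± 0.19 in Ni-W, adjusted p = 0.11). With the block PAM and PCSK5 were called higher in both nickel groups and MME in Ni-E, and PAM was called lower in Ni-W than in Ni-E. ECE1, which cleaves the endothelin precursor, had a log2 fold change of 0.38 ± 0.19 in Ni-E and 0.44 ± 0.19 in Ni-W and was not called, and LPL, the target of ANGPTL4, was at 0 in all libraries.

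All 13 angiogenesis inhibitors were tested and 0 were called by edgeR in Ni-E or Ni-W against UT, with 3 and 2 at an unadjusted p under 0.05 and medians of -0.07 and 0.14. With the block, ADAMTS1 and TIMP2 were called higher and THBS2 lower in Ni-E, and ADAMTS1, TIMP2 and TIMP3 higher in Ni-W. ADAMTS1 was at 27.0 and 15.9 TPM in UT and 77.9 and 50.2 TPM in Ni-E. Of 20 HIF factors and targets outside the 10 genes, 5 were called higher in Ni-E and 0 lower, with a median log2 fold change of 0.92. They were PFKFB4 (1.99 ± 0.17, SE), BNIP3 (1.95 ± 0.17), KDM3A (1.29 ± 0.19), DDIT4 (1.13 ± 0.17) and EGLN3 (0.98 ± 0.15). In Ni-W against UT 0 of the 20 were called by edgeR, with 8 at an unadjusted p under 0.05 and a median of 0.57, and with the block 12 were called higher and 1 lower in Ni-E and 9 higher in Ni-W.

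**Figure D3:**
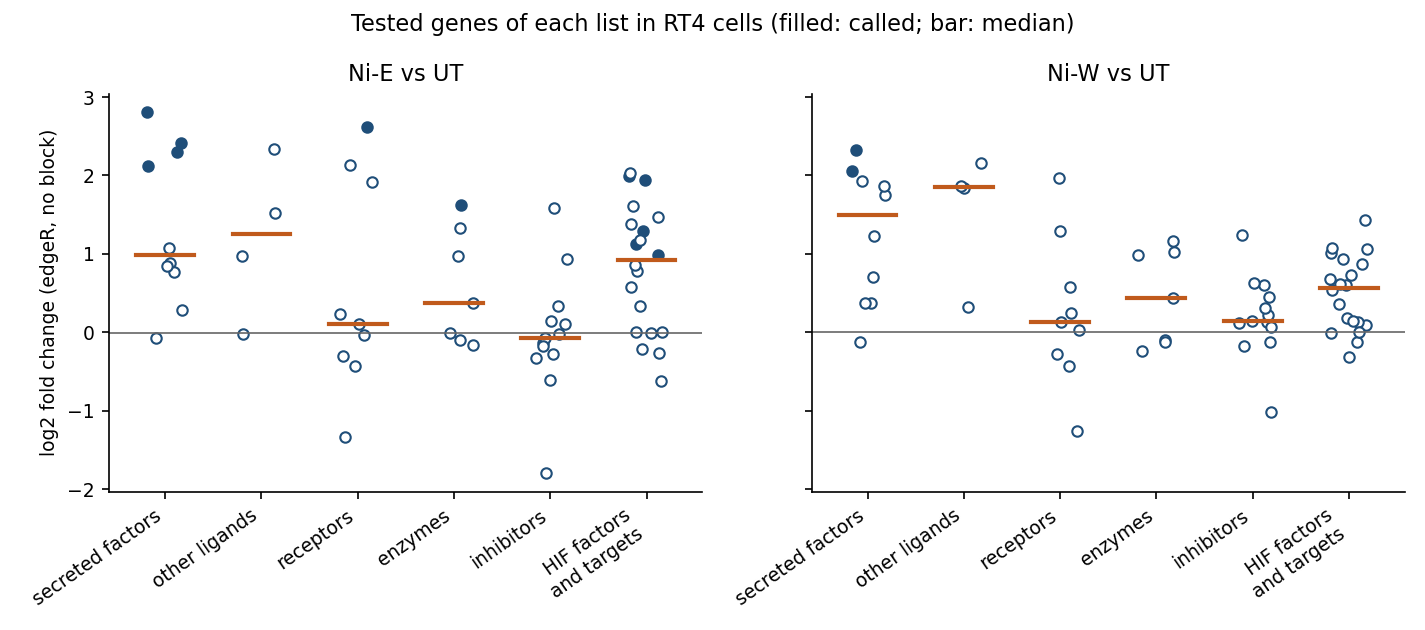
Log2 fold change (edgeR, no block) of every tested gene of the secreted factors and of 5 related lists in RT4 cells, for Ni-E and Ni-W against UT; filled points were called, orange bars are list medians and the grey line is the median of all genes. Calls in Ni-W were 2 secreted factors, and the other ligands had the highest median there, over 4 genes.

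In BEAS-2B cells, the promoter H3K4me3 of the 10 genes spanned from 1.67 RPKM at PGF to 17.8 RPKM at ADM in UT, as reads per kilobase on a per-million scale (RPKM) over the 4 kb around the start. H3K4me3 marks the promoters of active genes. The ADM promoter was above 99.7% of all promoters in UT and VEGFA, at 10.8 RPKM, above 94.0%. FGF2, whose RNA was lowest in RT4 cells, had 8.75 RPKM in UT BEAS-2B cells, above 87.0% of promoters, while PGF was close to the median promoter. With 1 library a condition there is no replicate check. The 95% Wilson intervals given here come from the reads recovered from the RPKM values and cover counting error only.

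The BEAS-2B Ni-W library had less of its depth in promoters: 22.9% of 29.9 M reads, against 37.6% of 28.4 M in UT and 36.0% of 37.5 M in Ni-E. Its median promoter was at 1.12 RPKM, against 1.57 in UT and 1.39 in Ni-E. Levels were therefore set over each library's median promoter, and the score of a comparison is the difference of the square roots of these ratios. Without that scaling the sign of several scores differed: ADM, ANGPTL4 and PDGFA in Ni-E against UT, VEGFC, EDN1 and PDGFA in Ni-W against UT, and VEGFB, VEGFC, EDN1, PDGFA and PDGFB in Ni-W against Ni-E, each positive with the scaling and negative without it.

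At the ADM promoter, H3K4me3 was 17.8 RPKM in UT (95% interval 16.99 to 18.54), 17.3 in Ni-E (16.65 to 17.98) and 8.22 in Ni-W (7.72 to 8.75). UT and Ni-E overlapped, and the Ni-W library was lower than both by the RPKM and by the score, which was -0.654 against UT. The Ni-E score of ADM against UT was 0.168, and -0.053 without the scaling. VEGFA was at 10.8 RPKM in UT (10.2 to 11.4), 9.01 in Ni-E (8.54 to 9.5) and 4.94 in Ni-W (4.56 to 5.36), with a score of -0.524 for Ni-W against UT. FGF2 was at 8.75, 8.88 and 4.74 RPKM, with a score of -0.305 for Ni-W against UT. It was above 87.0% of promoters in UT and 83.9% in Ni-W. The size of these 3 Ni-W scores depended on the scaling. With quantile normalization they were -0.481 for ADM, -0.327 for VEGFA and -0.101 for FGF2. Among promoters of at least 1 RPKM they were -0.176, -0.145 and -0.037 in the same order.

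VEGFC was at 7.05 RPKM in UT (6.57 to 7.55), 7.89 in Ni-E (7.45 to 8.35) and 6.57 in Ni-W (6.12 to 7.04). Set over the medians, VEGFC had a score of 0.265 in Ni-E and 0.302 in Ni-W against UT, and without the scaling the Ni-W score was -0.092. EDN1 was at 6.79, 5.82 and 5.59 RPKM, with scores of -0.032 in Ni-E and 0.154 in Ni-W against UT, and -0.242 in Ni-W without the scaling. PDGFA, at 3.65, 3.59 and 3.21 RPKM, had a score of 0.168 in Ni-W against UT and -0.119 without the scaling. PGF, at 1.67, 1.29 and 0.81 RPKM, had -0.182 in Ni-W against UT. PDGFB lay between 4.36 and 6.32 RPKM, VEGFB between 2.46 and 3.52 and ANGPTL4 between 1.43 and 2.35, and by the scaled score none of the 3 was past counting error against UT in Ni-E or Ni-W. Without the scaling the Ni-W scores against UT were -0.427 for PDGFB, -0.307 for VEGFB and -0.339 for ANGPTL4. Their RPKM intervals in UT and Ni-W did not overlap, and the median promoter was also lower in Ni-W. The percent of promoters below a gene needs no scaling. From UT to Ni-W it rose for VEGFC (78.8 to 93.9), EDN1 (77.3 to 89.3) and PDGFA (58.5 to 69.9). It also rose for PDGFB (74.4 to 80.9) and VEGFB (57.9 to 61.9). It fell for ANGPTL4 (53.1 to 52.4), PGF (50.4 to 47.2), ADM (99.7 to 97.9), VEGFA (94.0 to 85.3) and FGF2 (87.0 to 83.9).

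**Figure D4:**
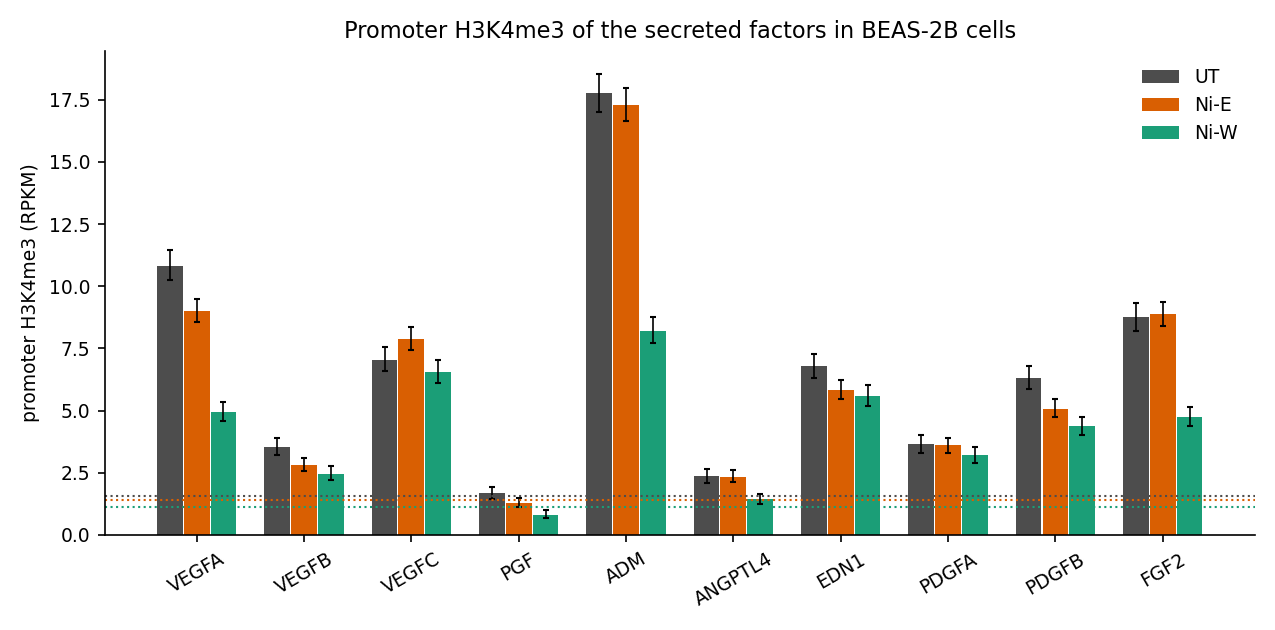
Promoter H3K4me3 in RPKM of the 10 genes in the UT, Ni-E and Ni-W libraries of BEAS-2B cells; error bars are 95% Wilson intervals of the reads and dotted lines the median promoter of each library. In RPKM all 10 genes, and the median promoter, were lower in Ni-W than in UT and in Ni-E. ADM, VEGFA and FGF2 were at 8.22, 4.94 and 4.74 RPKM in Ni-W.

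In counts, 3 of the 10 genes had a score past counting error in Ni-E against UT, all higher (VEGFC, ADM and FGF2), against 29.1% of all promoters higher and 3.74% lower. Without the scaling the split was 1 higher and 5 lower, and with quantile normalization 1 and 3. The share of all promoters past counting error was not counted in these other settings. Of all promoters, 40.2% had a score above 0 without the scaling and 48% with quantile normalization. In Ni-W against UT, 3 were higher (VEGFC, EDN1 and PDGFA) and 4 lower (VEGFA, PGF, ADM and FGF2). Of all promoters, 19.9% were higher and 36.3% lower by this score. The split was 0 and 8 without the scaling, where 21.6% of all promoters had a score above 0. It was 5 and 3 with quantile normalization, where 43.7% had a score above 0. In Ni-W against Ni-E, 1 was higher (EDN1) and 5 lower (VEGFA, PGF, ADM, ANGPTL4 and FGF2), against 14.8% of all promoters higher and 44.3% lower. The split was 0 and 7 without the scaling, where 19.8% of all promoters had a score above 0. It was 5 and 4 with quantile normalization, where 43.5% had a score above 0. The RT4 and BEAS-2B values come from different cells, times and measurements, so no test of 1 against the other was made.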

How the data were processed

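RNA-Seq of 6 RT4 libraries and H3K4me3 ChIP-Seq of 3 BEAS-2B libraries were used; the ChIP input libraries were not used. The RT4 tables deposited by the authors hold the estimated count, TPM and FPKM of each gene from RSEM, after alignment with STAR; the study's methods name hg19 with RefSeq annotation and the processing notes GRCh38, and which of these the RSEM tables used is not given in the sources used here, so RNA-Seq genes were matched by symbol only. The ChIP-Seq tables deposited by the authors hold RPKM values of promoters (2 kb on either side of the start) from non-redundant reads placed on hg38 with BWA, without peak calling. TPM gives levels, FPKM was not analysed, and whole reads were recovered from every RPKM value (tolerance 0.00055 RPKM). Estimated counts were rounded and fitted in edgeR 4.0.16 (R 4.3.3; TMM, filterByExpr, quasi-likelihood test, 6 libraries, 3 groups, Benjamini-Hochberg). Alternatives were DESeq2 1.42.0, limma 3.58.1 on log2 TPM, other filters and scalings, a replicate block and leaving out each library. The study's own calls were made with DESeq2, at the same thresholds of 1.5-fold and an adjusted p under 0.05. The edgeR fits and the H3K4me3 score were tested on simulated data. SEs and 95% intervals are those of the fit.

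The labels call the second library of each group a duplicate, and the study's methods describe biological replicates. Same-numbered libraries deviated together over 14502 genes (r = 0.624 for UT and Ni-E, 0.732 for UT and Ni-W, 0.665 for Ni-E and Ni-W), so the numbers were taken to pair the libraries. The 10 genes and all lists were chosen with earlier results of these data known. Named genes are the 10, the called genes of each list (at most 4 by size, with EGLN3 added as the fifth of 5 and genes called only with the block added after their values were seen), the receptors of the ligands, the 3 genes closest in pattern to VEGFA, ADM and ANGPTL4, and at most 4 promoters with a motif. Gene positions are from GENCODE v44.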

Additional observations from a re-analysis of the deposited data

How the results depend on the processing

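Among the RNA-Seq fits, no call of the 10 genes changed sign. In Ni-E against UT, 4 of the 10 genes were called, 8 with the replicate block, and 0 to 4 without 1 library. In Ni-W against UT, 2 were called, 6 by DESeq2, 5 with no filter on low counts, 7 with the replicate block, 4 and 5 by limma on log2(TPM + 1) and log2(TPM + 0.1), 0 with only the 2 groups compared, and 0 to 1 without 1 library. In Ni-W against Ni-E, 0 were called, 1 by DESeq2 and 3 with the replicate block. Apart from the calls given beside the results, the block changed no call of the 10 genes. Over all genes, Ni-E against UT gave 314 calls, 780 by DESeq2, 209 with at least 10 counts in every library, 1833 with the replicate block, 177 and 185 by limma with the 2 pseudocounts, and 0 to 320 without 1 library. Ni-W against UT gave 87, then 483 by DESeq2, 193 with no filter, 54 with at least 10 counts, 1243 with the replicate block, 0 with only the 2 groups, and 0 to 38 without 1 library. Ni-W against Ni-E gave 0, then 162 by DESeq2, 14 with no filter, 655 with the replicate block and 8 by limma on log2(TPM + 0.1). The cause of these differences was not tested.

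For H3K4me3, 3 of the 10 genes were past counting error in Ni-E against UT. The number was 6 without median scaling, by the log2 ratio of (RPKM + 1), or among promoters of at least 1 RPKM. Of the promoters in each of these settings, 40.2, 40.2 and 45.8% had a value above 0, against 72.7% by the scaled score of all promoters. Of the scores past counting error, those that changed sign without scaling and by the log2 ratio were ADM in Ni-E against UT (-0.053 and -0.035), VEGFC (-0.092 and -0.089), EDN1 (-0.242 and -0.242) and PDGFA (-0.119 and -0.143) in Ni-W against UT, and EDN1 in Ni-W against Ni-E (-0.049 and -0.050). Of the scores within counting error, ANGPTL4 and PDGFA in Ni-E against UT and VEGFB, VEGFC, PDGFA and PDGFB in Ni-W against Ni-E also turned from positive to negative in both settings. Among promoters of at least 1 RPKM, PGF (0.012) and ANGPTL4 (0.0058) changed sign in Ni-W against Ni-E. VEGFB (0.077), ANGPTL4 (0.0165) and PDGFB (0.096) did so in Ni-W against UT. These 3 were within counting error by the scaled score over all promoters. Among promoters of at least 1 RPKM, 5 of the 10 genes were higher past counting error in Ni-W against UT. Quantile normalization turned VEGFB (0.159) and PDGFB (0.171) in Ni-W against UT. With 2 replicates in RNA-Seq and 1 library in ChIP-Seq, small changes in low genes such as FGF2 were not detectable at this depth.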
